A study of Mus musculus with 8 samples.

Results

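The genes of the mouse major histocompatibility complex (MHC, called H2 in the mouse) and of antigen processing were compared between small intestinal adenomas and wild-type small intestine. Members were the rows of the deposited count table with a protein-coding GENCODE M21 symbol starting with H2-, together with B2m, Cd74, Ciita, Nlrc5, Tap1, Tap2, Tapbp, Psmb8, Psmb9 and Psmb10. The rule found 44 of the 39179 rows and used no measured value. A further 11 rows with H2- symbols are annotated as pseudogenes and were not members. By class, 2 members were classical class I heavy chains, 22 non-classical class I, 4 classical class II, 5 non-classical class II and 1 each the light chain and the invariant chain. The others were 2 transcriptional regulators, 3 genes of peptide transport and loading, 3 immunoproteasome subunits and H2-Ke6, a steroid dehydrogenase gene that is named for its place in the region.

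The study holds 8 libraries of whole tissue RNA from mice of an inbred C57BL6/J (N9/99.8%) background. The 3 wild-type libraries came from small intestine of VilCreER+ mice and the 5 adenoma libraries from small intestinal adenomas of VilCreER+ APCfl/+ mice. Both groups carried the transgene, in which the villin promoter, active in intestinal epithelium, drives a Cre recombinase that tamoxifen activates, and both had been given tamoxifen. The adenoma mice had in addition 1 floxed allele of Apc, an inhibitor of Wnt signalling. The adenomas arose in aged mice, and the age of the wild-type mice is not given in the sources used here. The labels do not say that each library came from a separate mouse, and the p-values reflect only how much these libraries vary, which may be technical. In whole tissue, fewer cells of a type and less RNA per cell cannot be told apart.

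Class I molecules are made of a heavy chain and the light chain B2m and show peptides from inside the cell to CD8 T cells. The peptides are cut by proteasomes, which in immune-stimulated cells carry the subunits Psmb8, Psmb9 and Psmb10, and are carried into the endoplasmic reticulum by Tap1 and Tap2. Class II molecules show peptides from endosomes to CD4 T cells. They are made mainly by dendritic cells, macrophages and B cells, and also by intestinal epithelium, where interferon-gamma induces them. Nlrc5 is the master regulator of class I genes, and Ciita that of class II genes.

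Both regulators act through a shared promoter module that includes the X2 box and the Y box, and class I promoters also hold interferon-response and kappa B elements. Promoter windows of 250 bases before to 50 after the start were found in RefSeq (GRCm38.p6) for 37 of the 44 members. The 5 windows below belong to B2m, to 3 heavy chains whose differences between the groups were of unequal size, and to a class II gene. Capitals mark matches, on either strand, to CCAAT (the Y box core), TGACG (part of the X2 box) and GGGGATT (part of the class I kappa B site). They also mark TTCNNNGAA (gamma-activated site), TATAAA and GAAA followed after any 2 bases by GAAA (a strict form of the interferon-stimulated response element).

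B2m chr2:122147437-122147736 (plus strand): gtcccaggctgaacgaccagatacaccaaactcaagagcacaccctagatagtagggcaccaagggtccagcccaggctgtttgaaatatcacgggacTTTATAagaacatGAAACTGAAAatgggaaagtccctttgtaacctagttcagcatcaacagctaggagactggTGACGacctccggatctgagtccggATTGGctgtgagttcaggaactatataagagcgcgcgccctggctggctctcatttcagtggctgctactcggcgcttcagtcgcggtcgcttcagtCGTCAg
H2-K1 chr17:34000298-34000597 (minus strand): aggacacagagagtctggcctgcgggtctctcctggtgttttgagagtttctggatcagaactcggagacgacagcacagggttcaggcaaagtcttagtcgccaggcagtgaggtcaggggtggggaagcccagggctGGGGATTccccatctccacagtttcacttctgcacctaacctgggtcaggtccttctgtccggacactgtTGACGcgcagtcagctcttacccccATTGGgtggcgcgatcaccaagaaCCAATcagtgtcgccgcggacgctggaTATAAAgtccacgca
H2-Q2 chr17:35342057-35342356 (plus strand): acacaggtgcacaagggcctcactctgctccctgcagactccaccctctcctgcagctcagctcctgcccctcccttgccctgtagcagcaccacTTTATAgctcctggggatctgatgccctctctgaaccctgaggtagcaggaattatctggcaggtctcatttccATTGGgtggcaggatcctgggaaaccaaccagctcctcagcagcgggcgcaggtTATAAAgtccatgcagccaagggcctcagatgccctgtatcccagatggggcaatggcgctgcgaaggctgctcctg
H2-T3 chr17:36190102-36190401 (minus strand): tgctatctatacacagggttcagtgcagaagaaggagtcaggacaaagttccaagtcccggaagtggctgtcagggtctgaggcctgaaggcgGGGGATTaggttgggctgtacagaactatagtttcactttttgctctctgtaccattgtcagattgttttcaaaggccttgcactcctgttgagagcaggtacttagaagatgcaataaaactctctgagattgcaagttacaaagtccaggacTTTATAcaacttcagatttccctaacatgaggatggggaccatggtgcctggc
H2-Aa chr17:34287774-34288073 (minus strand): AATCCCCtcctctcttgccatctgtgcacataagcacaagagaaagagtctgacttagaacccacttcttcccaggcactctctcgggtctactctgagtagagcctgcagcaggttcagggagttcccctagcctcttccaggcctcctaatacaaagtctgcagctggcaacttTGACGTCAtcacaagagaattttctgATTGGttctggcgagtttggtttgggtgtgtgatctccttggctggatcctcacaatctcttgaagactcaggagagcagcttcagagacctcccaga

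CCAAT was found in 31 of the 37 member windows, against 37.4% of the 32851 windows in the table. GGGGATT was found in 10 of the 37, against 3.10% of all windows, and H2-K1, H2-D1, H2-Q4, H2-Q6, H2-Q7, H2-T22 and H2-T3 were the tested heavy chains among them. In H2-Aa the 2 matches to TGACG overlap on opposite strands. The H2-Q2 window held neither TGACG nor GGGGATT, and the H2-T3 window held no CCAAT. GAAA followed after any 2 bases by GAAA was found in the windows of 3 members, B2m, H2-T23 and H2-T22, against 3.44% of all windows. Looser forms of the interferon-stimulated response element were not searched for, so windows without this match may still hold the element. TGACG was found in 15 member windows (20.8% of all), TATAAA in 16 (13.6%) and TTCNNNGAA in 4 (8.30%). A match describes the letters of a window and is no evidence of binding, and a missing match says only that these letters were not in that window.

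Total counts ran from 18040301 to 28343915 per library. Apc itself was at 191 to 211 CPM (counts scaled to the TMM library size) in wild type, against 132 to 159 CPM in adenoma. Some libraries stood apart. Adenoma 2 had 245.5 CPM of the hindgut gene Hoxb13 and 0.470 CPM of the proximal gut gene Gata4, which was at 68.4 CPM or more in every other library. Wild type 1 had 246 CPM in all of 10 B cell genes, against 23.9 and 24.5 CPM in the other wild-type libraries, and 1170.5 CPM of exocrine pancreas genes, against 47.9 and 58.5 CPM. Adenoma 5 had 973 CPM of the pancreas genes and the other adenomas 173 to 282 CPM. The female transcript Xist, here scaled to the total count only, lay between 1.14 and 1.77 CPM in adenoma 1 and all wild-type libraries, but between 435 and 820 CPM in adenomas 2 to 5, so the groups also differed in sex pattern. Where a member's call changed without adenoma 2 or wild type 1, that value is given too.

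Of the 44 members, 35 passed the filter on low counts, and 23 of them fell in adenoma at an adjusted p below 0.05 (edgeR's quasi-likelihood test, Benjamini-Hochberg over 18345 genes), beside 27.8% of all tested genes. The same test called 0 members higher, beside 30.3% of all genes. At an unadjusted p below 0.05 edgeR had 0 members higher and 29 lower, beside 32.8% and 30.3% of all genes. DESeq2 called 1 member higher, H2-Q10, and 27 lower, beside 29.8% and 30.0% of all genes, and limma-voom 0 higher and 19 lower, beside 28.7% and 28.4%. The median log2 fold change (adenoma minus wild type) was -1.10 over the tested members and 0.04 over all tested genes. In 22 of the 35 members every adenoma was below every wild-type library, and in 0 members above it, against 27.6% and 29.3% of all tested genes. The class I pathway (heavy chains, B2m, transport, immunoproteasome and Nlrc5) had 18 of 23 tested members lower, with a median of -1.15. The class II pathway (class II chains, Cd74 and Ciita) had 5 of 11 lower, with a median of -0.96.

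Without wild type 1, 16 members were called lower and 1, H2-Ke6, higher, beside 23.3% and 25.7% of all tested genes. The class I pathway then had 15 members lower and the class II pathway 1, Ciita, with medians of -1.09 and -0.49. Without wild type 1 and adenoma 5 together, the libraries with most pancreas transcripts, 14 members were called lower, beside 20.4% of all genes. With the sex pattern of the libraries as a covariate, a fit in which adenoma 1 alone separates sex from tumour, 8 members were called lower, beside 12.5% of all genes. These were B2m, H2-Q4, H2-T22, H2-T23, H2-T24, Tap1, Tap2 and Nlrc5, which were also called lower under every other alternative tried. When libraries were scaled to 12 pan-epithelial genes, the median of all genes moved to -0.74, that of the members to -1.87, and 32 members were called lower, beside 55.9% of all tested genes. These were 21 of 23 tested members of the class I pathway and 11 of 11 of the class II pathway.

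**Figure D1:**
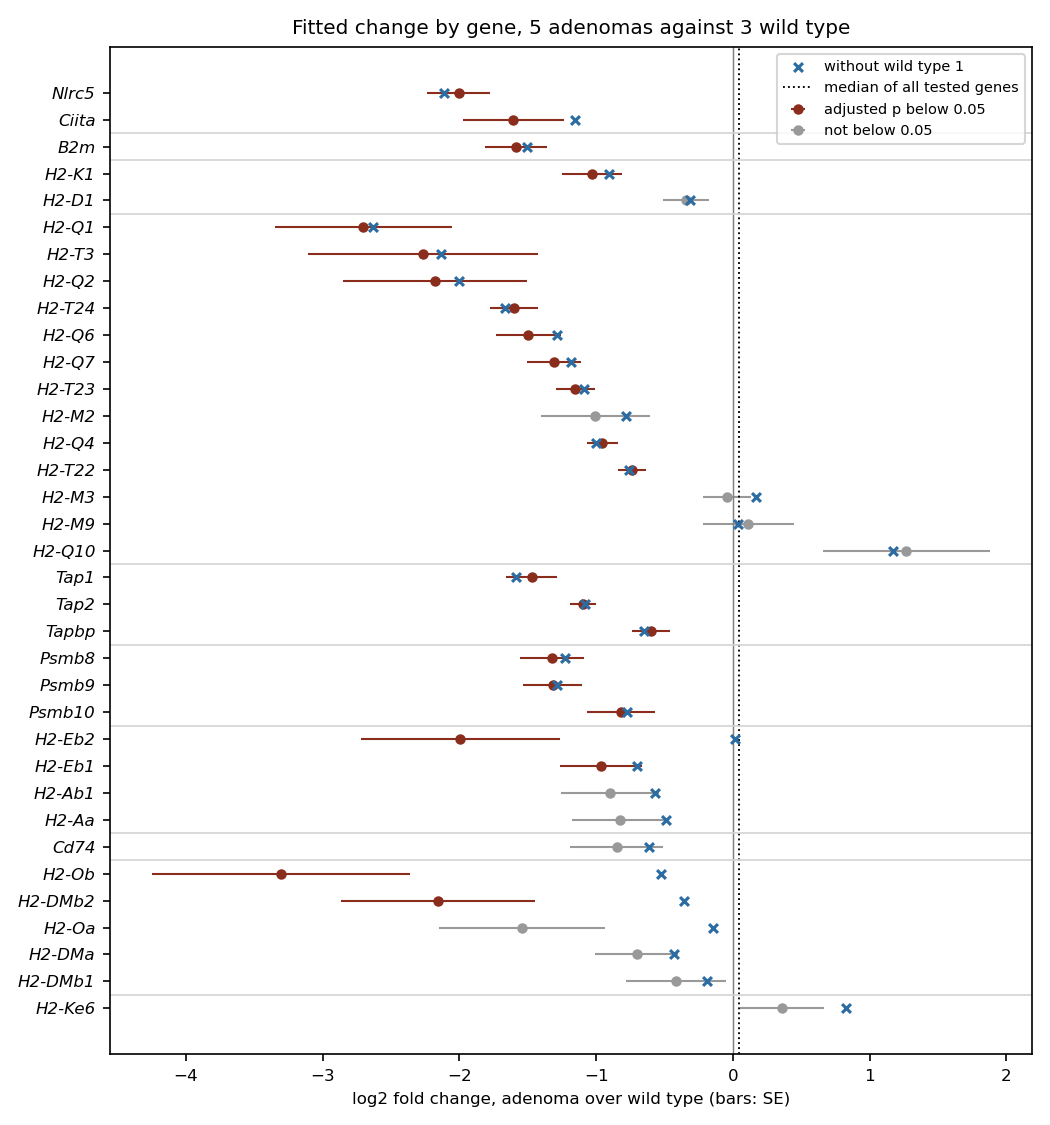
Log2 fold change of each tested member, adenoma against wild type, grouped by class. Points with bars are the estimate and its SE from all 8 libraries, crosses are the estimate without wild type 1, and the dotted line is the median of all tested genes at 0.04. Most class I pathway points lie left of the line with crosses close to them, whereas the crosses of H2-Ob, H2-DMb2, H2-Eb2 and H2-Oa lie far from their points.

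Among the regulators, Nlrc5 (chr8:94434356-94527272, GRCm38) had the larger decline. Its level was 30.2, 39.5 and 38.7 CPM in wild type 1 to 3 and 11.4, 10.8, 5.63, 6.92 and 10.2 CPM in adenoma 1 to 5. Every adenoma was below every wild-type library, and the adenoma mean was 24.9% of the wild-type mean (log2 fold change -2.005 ± 0.23 SE, adjusted p = 0.000181). Ciita (chr16:10480059-10528418) was at 75.1, 40.2 and 32.0 CPM in wild type, against 24.0, 7.56, 17.0, 16.0 and 16.2 CPM in adenoma. These groups did not overlap either, although wild type 1 was far above the other wild-type libraries. Ciita fell by 1.60 ± 0.37 on the log2 scale (adjusted p = 0.00654), and by 1.15 without wild type 1 (adjusted p = 0.0311). The Ciita call was lost without wild type 1 and adenoma 5 together (adjusted p = 0.0585) and with the sex covariate (0.214). Exons of Nlrc5 and Ciita overlap those of 9330175E14Rik and Dexi, whose reads an unstranded kit cannot separate.

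The light chain B2m (chr2:122147686-122153083), which class I heavy chains need to reach the cell surface, fell to 33.4% of wild type. It was at 1114, 954 and 983 CPM in wild type, against 395, 192, 328, 371 and 409.7 CPM in adenoma. The highest adenoma was under the lowest wild-type library by more than the range within either group. The adenoma mean was 339 ± 87.7 CPM (SD, n = 5) against 1017 ± 84.9 CPM (SD, n = 3), a log2 fold change of -1.58 ± 0.23 (adjusted p = 0.000553).

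The classical heavy chains, which present peptides to most CD8 T cells, differed from each other. H2-K1 (chr17:33996017-34000347) was at 1144, 878 and 947 CPM in wild type, against 573, 285, 521, 520.5 and 521 CPM in adenoma. Adenomas 1, 3, 4 and 5 lay close together and adenoma 2 far below them. H2-K1 fell to 48.9% of wild type (log2 fold change -1.03 ± 0.22, adjusted p = 0.00402), a call lost with the sex covariate (adjusted p = 0.150). H2-D1 (chr17:35262730-35267499) was at 648, 649 and 593 CPM in wild type, against 590.2, 359, 461, 550.3 and 524 CPM in adenoma. The groups did not overlap by a narrow margin, adenoma 1 lying just under wild type 3. The adenoma mean of H2-D1 was 78.9% of wild type, and the difference of -0.34 ± 0.17 did not pass the test (adjusted p = 0.109). It passed under upper-quartile scaling, under pan-epithelial scaling (-1.15) and when only genes of at least 5 CPM in 3 libraries were tested. The unequal difference also stood within libraries, where the ratio of H2-D1 to H2-K1 counts was 0.567, 0.739 and 0.626 in wild type and 1.03, 1.26, 0.885, 1.06 and 1.007 in adenoma. The ratio did not overlap between the groups, nor did that of B2m to H2-K1 counts, at 1.03 ± 0.0566 (SD) in wild type and 0.699 ± 0.0578 in adenoma.

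**Figure D2:**
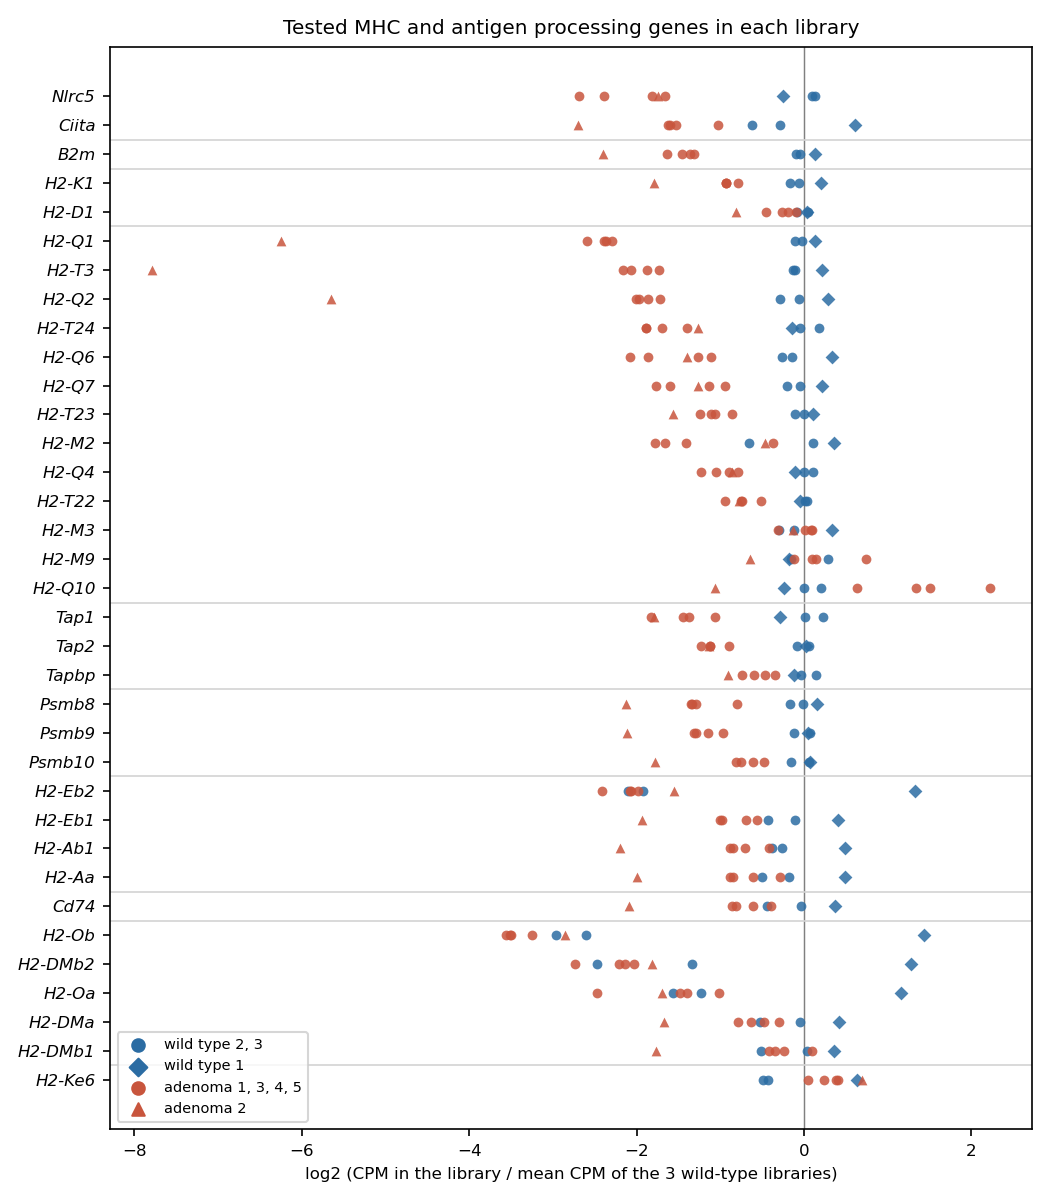
Level of each tested member in each library, as log2 of its CPM over the wild-type mean, in rows by class. Diamonds are wild type 1 and triangles adenoma 2, and the other symbols are the remaining libraries of each group. The triangles lie far left for H2-T3, H2-Q1 and H2-Q2, and the diamonds far right for H2-Ob, H2-Eb2, H2-DMb2 and H2-Oa.

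Of the 22 non-classical class I genes, which have narrower roles and fewer alleles, 13 were tested. Of these 13, 9 fell, beside 27.8% of all tested genes, with a median log2 fold change of -1.15. Without wild type 1, 7 fell, beside 23.3%, and without adenoma 2, 10 fell, beside 33.5%. The largest declines were those of H2-Q1, H2-T3 and H2-Q2, whose adenoma means were 15.3%, 20.8% and 22.1% of wild type. H2-T3 encodes the thymus leukaemia antigen, made by intestinal epithelium and bound by CD8 alpha homodimers on intraepithelial lymphocytes. It was at 180.2, 144 and 142 CPM in wild type, against 34.8, 0.704, 42.2, 37.0 and 47.0 CPM in adenoma. All adenomas were far below wild type, and adenoma 2 held 1.75% of the mean of the other 4.

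H2-T3 fell by 2.26 ± 0.84 on the log2 scale (adjusted p = 0.0483). Without adenoma 2 the H2-T3 difference was -1.96 with an adjusted p of 3.00e-06. The call was lost when any single wild-type library or any adenoma other than adenoma 2 was left out, with adjusted p from 0.0671 to 0.111, and under other alternatives, up to 0.346 with the sex covariate. H2-Q2 was at 621, 417 and 485 CPM in wild type, against 127, 10.1, 154, 129.9 and 139.6 CPM in adenoma. Its pattern was that of H2-T3, with adenoma 2 at 7.34% of the other adenomas. H2-Q2 fell by 2.18 ± 0.67 (adjusted p = 0.0248), and by 1.89 without adenoma 2 (adjusted p = 6.26e-06). Its call was lost without wild type 1 (0.0702) or wild type 3 (0.0562), among other alternatives. H2-Q1 was at 159, 135 and 143 CPM in wild type, against 27.8, 1.93, 29.7, 28.3 and 24.2 CPM in adenoma. Adenoma 2 was again far below the other 4, which were close to each other. H2-Q1 fell by 2.70 ± 0.65 (adjusted p = 0.00858), and by 2.42 without adenoma 2 (adjusted p = 4.61e-07). The H2-Q1 call was lost under some alternatives, with an adjusted p up to 0.190 with the sex covariate.

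Adenoma 2 was also the library with the lowest mature enterocyte genes, at 630.5 CPM summed over 12 genes, against 10193.9 to 19908 CPM in the remaining adenomas and 36966 to 56566 CPM in wild type. Of the 12 genes, 6 were called lower and 0 higher, beside 27.8% and 30.3% of all tested genes. Without wild type 1, 3 were lower, beside 23.3%, and with the sex covariate 0, beside 12.5%. Without adenoma 2, 11 were lower and 1 higher, beside 33.5% and 34.0%. Alpi was higher on average in adenoma, at 567 ± 199 and 1293 ± 929 CPM, and was not called. The part of the lower enterocyte sums in the class I values was not tested. H2-T3, H2-Q1 and H2-Q2 were well below wild type in the adenomas without adenoma 2 as well, as the values above show.

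The other called non-classical genes had a smaller spread between adenomas. H2-T23, which encodes Qa-1, the ligand of the inhibitory receptor CD94/NKG2A, was at 204, 176 and 190.0 CPM in wild type, against 105, 64.2, 80.0, 90.9 and 87.7 CPM in adenoma. The groups were well apart, and H2-T23 fell by 1.15 ± 0.15 (adjusted p = 0.000282). H2-T24 fell from 16.3 ± 1.91 CPM (SD, n = 3) to 5.37 ± 1.09 CPM (SD, n = 5), and adenoma 2, at 6.81 CPM, was its highest adenoma. H2-Q6 and H2-Q7, the genes of the Qa-2 antigen, fell from 20.7 ± 4.73 and 15.7 ± 2.38 CPM to 7.33 ± 1.98 and 6.33 ± 1.44 CPM. The H2-Q6 and H2-Q7 calls were lost with the sex covariate (adjusted p = 0.0634 and 0.0520). H2-Q4 fell from 47.6 ± 3.46 to 24.5 ± 2.90 CPM and H2-T22 from 30.5 ± 0.888 to 18.3 ± 1.99 CPM. In each of these genes every adenoma was below every wild-type library.

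Near-identical sequence limits how far these genes can be told apart. Of all 36-base stretches in its transcripts, the read length used, H2-T22 shared 63.5% with other genes, H2-Q4 47.7%, H2-Q6 46.0% and H2-Q7 34.8%. The share was 26.3% for H2-Q10, 26.2% for H2-Q2, 22.3% for H2-T23, 21.8% for H2-D1, 19.99% for H2-Q1 and 17.6% for H2-K1. It was 33.4% for H2-DMb2, 28.7% for H2-DMb1 and 25.7% for Tapbp, but 3.16% for H2-T3, 5.14% for H2-T24 and 0 for B2m. Counts of the genes with high shares are uncertain to that extent, and H2-Q4 and H2-T22 also overlap genes of the opposite strand.

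The other 4 tested non-classical genes passed the test in neither direction in the main fit. H2-Q10 was at 3.41, 4.01 and 4.64 CPM in wild type, against 11.4, 1.93, 18.8, 10.2 and 6.23 CPM in adenoma. All adenomas but adenoma 2 were above every wild-type library. Its difference of 1.27 ± 0.61 had an adjusted p of 0.107, and without adenoma 2 it was 1.52 with an adjusted p of 0.00516. H2-M2 had means of 2.98 ± 0.985 and 1.48 ± 0.696 CPM (log2 fold change -1.004 ± 0.40, adjusted p = 0.0548). Its adjusted p was 0.0432 without wild type 2, 0.0211 without adenoma 2 and 0.0304 without adenoma 5. H2-M2 was also called lower with RLE, upper-quartile and pan-epithelial scaling, DESeq2 and limma-voom, but it was not called in 9 of 17 alternatives. H2-M3, which presents formylated bacterial peptides, was at 8.34 ± 1.95 CPM in wild type, against 8.10 ± 0.915 CPM in adenoma. H2-M9 was at 0.807 ± 0.152 and 0.874 ± 0.305 CPM. The 9 untested genes were all of the H2-M group. H2-M1, H2-M10.3, H2-M10.4 and H2-M10.5 had 0 counts in all libraries, and the most counted of the others, H2-M10.2, reached 9 counts in a library.

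The make-up of class I transcripts differed as well. H2-K1 and H2-D1 together took 58.6 ± 1.28% (SD, n = 3) of all class I heavy chain counts in wild type and 75.1 ± 3.34% (SD, n = 5) in adenoma, with no overlap. The share of H2-K1 overlapped between the groups, at 34.6% to 36.8% in wild type and 35.7% to 38.1% in adenoma. H2-D1 took 20.9% to 25.5% of the counts in wild type and 33.7% to 44.9% in adenoma. H2-Q1, H2-Q2 and H2-T3 took 29.1 ± 1.76% in wild type and 11.7 ± 5.90% in adenoma, where adenoma 2 had 1.59%. Per kilobase of exon, the order of mean levels in wild type was H2-K1 at 337 CPM per kb, H2-D1 at 244, H2-Q2 at 233, H2-T23 at 65.7 and H2-T3 at 57.0. H2-D1 and H2-Q2 were neighbours in that order, and in adenoma they stood at 193 and 51.4 CPM per kb.

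**Figure D3:**
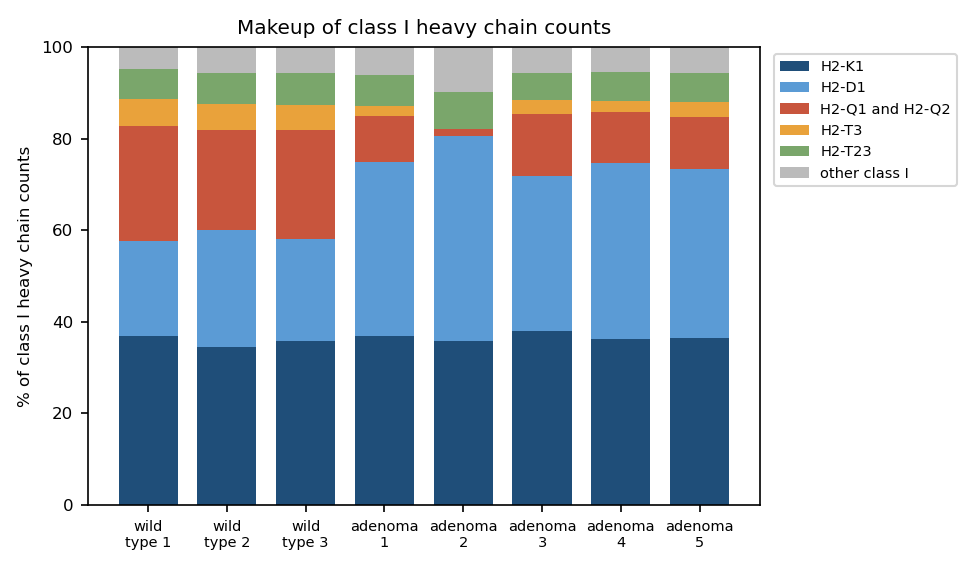
Share of class I heavy chain counts taken by H2-K1, H2-D1, H2-Q1 with H2-Q2, H2-T3, H2-T23 and the other class I genes, as percent of the summed counts, with 1 stacked bar per library. The H2-Q1 with H2-Q2 segment spans 21.7% to 25.1% in wild type and 1.504% to 13.5% in adenoma, and the H2-D1 segment is wider in every adenoma than in any wild-type library.

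All 3 genes of peptide transport and loading fell. Tap2 (log2 fold change -1.10 ± 0.09, adjusted p = 4.58e-05) was at 51.8, 53.4 and 48.3 CPM in wild type, against 23.5, 23.3, 21.8, 23.6 and 27.4 CPM in adenoma. The values were tight within each group, adenoma 2 included. Tap1 (chr17:34187553-34197225) was at 71.8, 103 and 88.6 CPM in wild type, against 42.2, 25.3, 24.8, 32.3 and 34.0 CPM in adenoma, a fall of 1.47 ± 0.19 (adjusted p = 0.000297). Tapbp, which encodes tapasin, the bridge between the transporter and the heavy chain, fell least. Its levels were 196, 207 and 236 CPM in wild type, against 154, 114, 127, 141 and 167 CPM in adenoma (-0.60 ± 0.14, adjusted p = 0.00554, and 0.165 with the sex covariate). The groups of all 3 genes were separate.

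All 3 immunoproteasome subunits fell. Psmb8 was at 108, 96.1 and 86.0 CPM in wild type, against 55.3, 22.2, 38.3, 37.9 and 39.5 CPM in adenoma. Psmb9 was at 43.1, 43.6 and 38.1 CPM and 21.3, 9.63, 16.8, 18.8 and 17.0 CPM. Both were separate between the groups and lowest in adenoma 2, and both fell by 1.32 on the log2 scale (SE 0.24 and 0.21, adjusted p = 0.00176 and 0.000996). With the sex covariate their adjusted p was 0.0937 and 0.0689. Psmb10, at 129.8 ± 11.1 CPM in wild type, against 73.6 ± 21.3 CPM in adenoma, fell by 0.82 ± 0.25 (adjusted p = 0.0201). The Psmb10 call was lost without wild type 1 (0.0663), without wild type 2 (0.0631) and under other alternatives, with an adjusted p up to 0.381 with the sex covariate. Exons of Tap1 and Psmb9 overlap by 212 bases on opposite strands, and those of Tap2, Psmb8 and Tapbp also overlap other genes, by 1053 bases in Tapbp.

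The constitutive subunits that these replace were all higher under TMM scaling, but none was called under pan-epithelial scaling, where Psmb6 and Psmb7 turned to -0.23 and -0.16. Psmb5 rose from 27.9 ± 2.80 to 55.9 ± 5.80 CPM, Psmb6 from 89.9 ± 4.43 to 135 ± 18.9 CPM and Psmb7 from 57.5 ± 6.35 to 88.8 ± 4.73 CPM. These levels are on the TMM scale. The ratios within a library need no scaling. Psmb8 over Psmb5 counts was 3.50 ± 0.683 in wild type and 0.685 ± 0.181 in adenoma, Psmb9 over Psmb6 0.462 ± 0.0169 and 0.122 ± 0.0212, and Psmb10 over Psmb7 2.28 ± 0.352 and 0.823 ± 0.218. None of the 3 ratios overlapped between the groups.

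The abundant class II genes were lower on average in adenoma, and most did not pass the test in the main fit. H2-Aa, H2-Ab1, Cd74, H2-DMa and H2-Oa, not called there, depended on tool and scaling. Each was called lower with DESeq2, upper-quartile scaling and pan-epithelial scaling, but not with RLE size factors or limma-voom. H2-Aa (chr17:34282744-34287823), the alpha chain of I-A, was at 401, 251 and 202 CPM in wild type, against 234, 71.5, 154, 157 and 187 CPM in adenoma. Adenoma 1 was above wild type 3, so the groups overlapped (log2 fold change -0.82 ± 0.36, adjusted p = 0.0758, and 0.0451 without adenoma 1). H2-Ab1, its beta chain, was at 422, 251 and 231 CPM and 225, 65.8, 168, 164 and 185 CPM, with the highest adenoma just under wild type 3. The H2-Ab1 difference was -0.90 ± 0.36 (adjusted p = 0.0593), and the adjusted p was 0.0452 without adenoma 1 and 0.0197 without adenoma 2.

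H2-Eb1 (chr17:34305867-34316674), the beta chain of I-E, was the only one of these 3 to pass in the main fit. The alpha chain row of I-E, H2-Ea-ps, is annotated as a pseudogene and was not a member, and I-E protein was not measured. H2-Eb1 was at 259, 182 and 144 CPM in wild type, against 132, 50.9, 99.1, 97.3 and 121 CPM in adenoma, with no overlap. The H2-Eb1 level fell by 0.96 ± 0.30 (adjusted p = 0.0225), but by 0.70 with an adjusted p of 0.108 without wild type 1. The invariant chain Cd74, which occupies the class II groove until it is exchanged for peptide, was at 848, 637 and 481 CPM in wild type, against 500.4, 153, 359.6, 375 and 430.3 CPM in adenoma. Its groups overlapped, and its difference of -0.85 ± 0.34 had an adjusted p of 0.0593, with 0.0455 without adenoma 1 and 0.0134 without adenoma 2. In all 4 genes wild type 1 was the highest library and adenoma 2 the lowest.

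The proportions among these genes overlapped between the groups. H2-Aa over Cd74 counts was 0.428 ± 0.0404 in wild type and 0.443 ± 0.0224 in adenoma, and H2-Ab1 over H2-Aa was 1.07 ± 0.0722 and 1.00 ± 0.0673. H2-Eb1 over H2-Aa ran from 0.647 to 0.724 in wild type and from 0.563 (adenoma 1) to 0.712 in adenoma. H2-Aa, H2-Ab1 and H2-Eb1 together over H2-K1 and H2-D1 were 0.475 ± 0.117 and 0.418 ± 0.0830, which overlapped too. Set against the summed markers of macrophages and dendritic cells, the 3 class II genes gave 0.963 ± 0.249 in wild type and 0.789 ± 0.356 in adenoma, with overlap and with adenoma 2 at 0.199. Without Mertk, a marker that fell strongly and was left out after its values were seen, the ratio was 1.39 ± 0.363 and 0.856 ± 0.392, again with overlap. Against the pan-epithelial genes the ratio was 0.161 ± 0.0480 and 0.0489 ± 0.0144, with none.

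The peptide exchange factor H2-DM is made of H2-DMa and H2-DMb chains. H2-DMa was at 31.0 ± 9.93 CPM in wild type, against 19.0 ± 5.83 CPM in adenoma (adjusted p = 0.0742, and 0.0455 without adenoma 2), and H2-DMb1 at 25.4 ± 7.42 and 19.1 ± 7.18 CPM (adjusted p = 0.354). Exons of H2-DMa and H2-Oa overlap those of Brd2 and BC051537 on the opposite strand. H2-Oa and H2-Ob form the DM inhibitor of B cells, and these genes, H2-DMb2 and H2-Eb2 were high in 1 library. H2-Ob was at 35.7, 2.17 and 1.69 CPM in wild type 1 to 3, against 1.12, 1.83, 1.16, 1.17 and 1.39 CPM in adenoma. H2-DMb2 was at 17.98, 1.34 and 2.95 CPM in wild type, against 1.12 to 2.11 CPM in adenoma, and H2-Eb2 at 11.4, 1.06 and 1.20 CPM and 0.849 to 1.55 CPM. H2-Oa was at 6.11, 1.17 and 0.928 CPM in wild type, against 0.491 to 1.35 CPM in adenoma. Outside wild type 1 the groups overlapped for all 4 genes.

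H2-Ob, H2-DMb2 and H2-Eb2 were called lower, with log2 fold changes of -3.30 ± 0.94, -2.16 ± 0.71 and -1.99 ± 0.73 (adjusted p = 0.0179, 0.0301 and 0.0433). Without wild type 1 the differences were -0.53, -0.36 and 0.02, none of them called (adjusted p = 0.146, 0.432 and 0.964). The H2-DMb2 and H2-Eb2 calls were also lost when any 1 adenoma was left out, with adjusted p up to 0.0646 and 0.0837. H2-Oa, at -1.54 ± 0.61, did not pass (adjusted p = 0.0552), passed without wild type 2 (0.0358) or wild type 3 (0.0261), and was at -0.15 without wild type 1. The ratio of wild type 1 to the mean of wild type 2 and 3 was 18.5 for H2-Ob, 10.1 for H2-Eb2, 8.39 for H2-DMb2 and 5.83 for H2-Oa. The summed B cell markers were also highest in wild type 1, at 246 CPM. They were at 24.5 and 23.9 CPM in wild type 2 and 3, and at 15.1 to 24.4 CPM in adenoma. This likeness rests on 1 library, and the part of B cells in the values of the 4 genes was not tested. Of 9 B cell genes tested, 5 were lower in adenoma, beside 27.8% of all tested genes, and 1 without wild type 1, beside 23.3%.

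**Figure D4:**
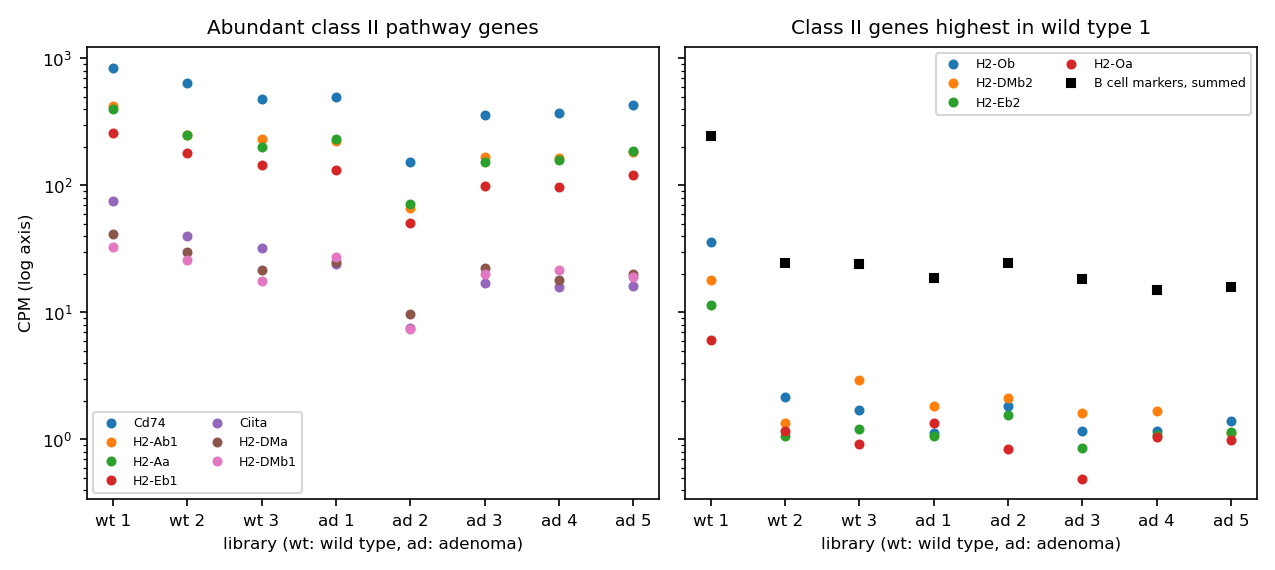
Class II genes by library, in CPM on a log axis. The left panel holds H2-Aa, H2-Ab1, H2-Eb1, Cd74 and other abundant class II genes, and the right panel H2-Ob, H2-DMb2, H2-Eb2 and H2-Oa with the summed B cell markers as black squares. In the right panel wild type 1 lies above all other libraries, and in the left panel adenoma 2 is the lowest.

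Adenoma 2 was the lowest adenoma for 20 of the 35 tested members and was under 50% of the mean of the other adenomas for 12. Shares over all tested genes were not computed for these counts, and adenoma 2 also stood apart over genes in general. Chi-square per degree of freedom was 118 to 149 in its pairs with other adenomas and 20.1 to 61.5 in the remaining adenoma pairs. Adenoma 2 was low in the abundant class II genes and H2-K1, B2m and the immunoproteasome, but not in all class I pathway members. Nlrc5, H2-T24 and H2-Q4 in adenoma 2 were at 126%, 136% and 109% of the mean of the other adenomas. Without adenoma 2, 25 members were called lower and 1, H2-Q10, higher, beside 33.5% and 34.0% of all tested genes. The one member that is no antigen-presenting gene, H2-Ke6, was at 1.25 ± 0.592 CPM in wild type, against 1.62 ± 0.268 CPM in adenoma (0.36 ± 0.31, adjusted p = 0.336), and at 0.83 (adjusted p = 0.0340) without wild type 1. It shares 74.4% of its 36-base stretches with the readthrough gene Gm20427.

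Markers of the cells that carry these molecules were read beside them. Dendritic cell markers, 11 genes, summed to 101 to 106 CPM in wild type, against 39.4 to 54.4 CPM in adenoma. Of these 11, 8 were called lower, beside 27.8% of all tested genes. Itgax fell from 40.4 ± 5.21 to 18.7 ± 2.12 CPM and Itgae from 33.2 ± 2.26 to 11.8 ± 1.73 CPM, and they had the highest levels of the list. Itgae is also on the list of T cells and intraepithelial lymphocytes below, so the sums of these lists are not separate readings. Macrophage and monocyte markers summed to 634 to 775 CPM and 397 to 897 CPM, with a median log2 fold change of 0.19. Of 13 tested, 1 was higher and 2 lower, beside 30.3% and 27.8% of all genes. Mertk, a receptor for dying cells, was at 245 ± 55.0 CPM in wild type, against 37.6 ± 8.32 CPM in adenoma, and without it the sums were 408 to 495 CPM and 350 to 871 CPM. Adenoma 2 was the highest with and without Mertk. Markers of T cells and intraepithelial lymphocytes, the cells that recognise these molecules, summed to 197 to 217 CPM in wild type, against 41.9 to 78.4 CPM in adenoma. Of 14 tested, 12 were lower and 1 higher, beside 27.8% and 30.3% of all genes. The pan-epithelial genes summed to 4636 to 5052 CPM in wild type, against 6132 to 9799 CPM in adenoma, and fibroblast genes to 1163 to 1528 and 2771 to 3499 CPM. The part of these shifts in the members' values was not tested.

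Genes around the members were read from lists. Interferons induce many class I pathway genes, and of 30 tested interferon response genes 24 were lower, beside 27.8% of all genes. Their median log2 fold change was -1.29. With the sex covariate 11 were lower, beside 12.5% of all genes, and without wild type 2, 18 were, beside 23.6%. Ifit1 fell from 69.2 ± 24.3 to 9.15 ± 3.14 CPM (-2.92), and Stat2, a subunit of the interferon-stimulated transcription factor, from 70.9 ± 15.9 to 22.03 ± 1.97 CPM (-1.69). Mx1 and Irf7 fell by 2.07 and 1.90. Of 9 tested interferon receptor and JAK genes, 1 was higher and 4 lower, beside 30.3% and 27.8% of all genes, and the median was -0.04. Jak2 fell from 260.1 ± 32.5 to 131 ± 27.8 CPM (adjusted p = 0.00193, and 0.108 with the sex covariate) and Ifnlr1, a receptor chain for interferon-lambda, from 30.4 ± 3.85 to 17.2 ± 1.82 CPM. The call of Il10rb (-0.55) was lost without wild type 1 or wild type 3, and that of Ifngr1 (0.22) when any of 6 single libraries was left out, with adjusted p up to 0.290 and 0.307 over all alternatives, and Ifngr1 turned to -0.56 under pan-epithelial scaling.

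**Figure D5:**
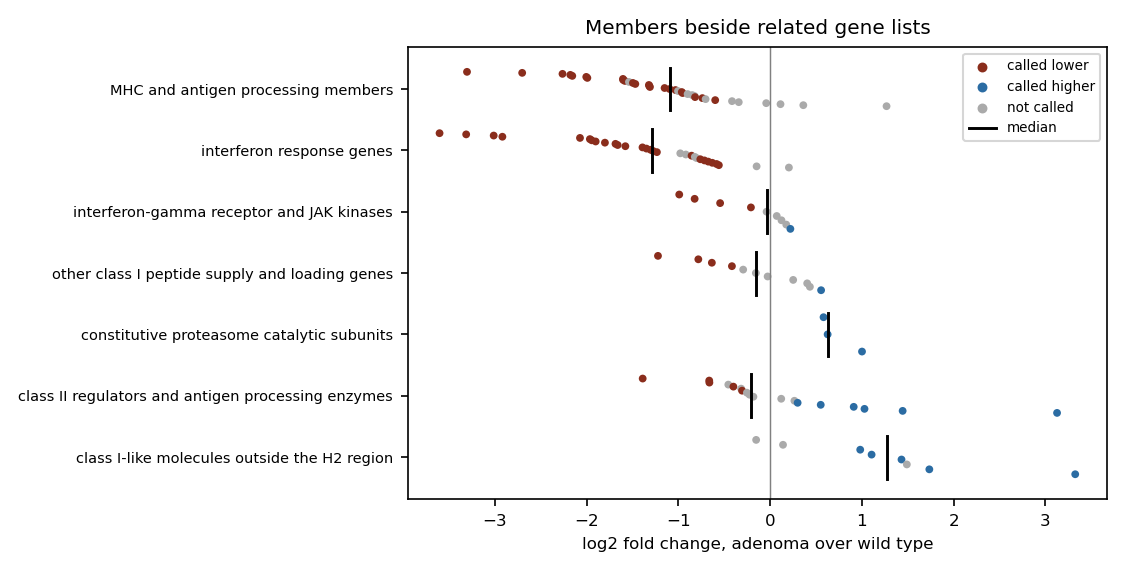
Log2 fold change of each tested gene, adenoma against wild type, for the members and 6 lists of related genes, with a bar at each median. The medians are -1.10 for the members, -1.29 for interferon response genes and 0.63 for the constitutive proteasome subunits (-0.16 under pan-epithelial scaling), and the other lists spread to both sides of 0.

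Other genes of peptide supply to class I were mixed, with 4 lower and 1 higher of 11 tested, beside 27.8% and 30.3% of all genes, and a median of -0.16. The peptide trimming enzyme Erap1 fell from 161 ± 7.75 to 104 ± 20.9 CPM (adjusted p = 0.0114, and 0.306 with the sex covariate), and Lnpep by 0.78. The proteasome activator subunit Psme2 fell from 9.48 ± 0.646 to 4.05 ± 0.871 CPM (adjusted p = 0.000980, and 0.0658 with the sex covariate). Tapbpl, a relative of tapasin, was called at -0.42 and Pdia3 at 0.56. Both calls were lost without wild type 1 and under other alternatives, with adjusted p up to 0.132 and 0.265, and Pdia3 turned to -0.25 under pan-epithelial scaling.

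Class II cofactors and endosomal enzymes included genes called in both directions, 6 higher and 5 lower of 18, with a median of -0.20. These shares are close to the 30.3% and 27.8% of all tested genes. The lysosomal proteases Ctsl and Ctsd rose from 41.6 ± 8.32 to 364 ± 118 CPM and from 199 ± 20.2 to 541 ± 90.8 CPM. Both stayed higher under every alternative tried. Lgmn and Nfyb were called higher (0.91 and 0.55), but not under pan-epithelial scaling, where Nfyb turned to -0.23. March1, a ligase that removes class II from the surface, fell from 16.3 ± 5.50 to 6.21 ± 1.52 CPM (adjusted p = 0.00168, and 0.0635 with the sex covariate). Without wild type 1 the list had 5 higher and 2 lower, beside 25.7% and 23.3% of all genes.

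Of 12 listed class I-like genes outside the H2 region, 8 passed the filter on low counts. Of these 8, 5 were higher, beside 30.3% of all genes. The median of the 8 was 1.27, and under pan-epithelial scaling 2 were higher and 2 lower, beside 6.15% and 55.9%. Procr, the endothelial protein C receptor, rose from 5.24 ± 0.714 to 17.5 ± 1.99 CPM. Ulbp1, a ligand of the activating receptor NKG2D, rose from 1.83 ± 0.419 to 4.96 ± 1.17 CPM, and Mr1, which presents vitamin B metabolites to mucosal T cells, from 3.64 ± 0.333 to 7.85 ± 2.24 CPM. The Ulbp1 and Mr1 calls were lost under pan-epithelial scaling (adjusted p = 0.128 and 0.375). Azgp1 was at 0.0861 ± 0.105 and 0.935 ± 0.288 CPM and was called higher.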

How the data were processed

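Whole tissue RNA of 3 wild-type and 5 adenoma libraries was sequenced as unstranded TruSeq libraries, in paired ends of 36 cycles, per the labels' protocols. The authors deposited a table of unnormalised read counts by gene. TopHat2, HTSeq and FastQC were used on build GRCm38, per the submitters' processing notes. Software versions, the annotation and the counter's strand setting: not given in the sources used here. Symbols, positions and merged exon lengths came from GENCODE M21.

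Adenoma was compared with wild type in edgeR 4.0.16 (R 4.3.3, filterByExpr by group, TMM, robust quasi-likelihood fit, Benjamini-Hochberg at 0.05 over all 18345 genes tested, common biological coefficient of variation 0.282). The fit was tested on simulated data. CPM are counts over TMM library sizes, log2 CPM add a prior count of 2, and SE is the log2 fold change over the square root of F. No pair within a group agreed within counting noise (chi-square per degree of freedom 20.1 to 149), so none was treated as a repeat deposit of the same library. This does not show that they came from separate mice.

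The members, lists and tests were chosen with earlier results of these data known, so they are described by counts and medians with no list test. Every tested member is named, and of each related list up to 4 called genes with the smallest adjusted p and the first of the other direction. Lists of related genes and cell markers were written by hand, and Gbp5 and Gbp6 of 32 interferon response genes were not used here. Alternatives were other scalings (RLE, upper quartile, 12 pan-epithelial genes), other filters, DESeq2 1.42.0, limma-voom (limma 3.58.1), a replicate block, each library left out, wild type 1 and adenoma 5 left out together, and a sex covariate. Shared 36-base stretches were counted over GENCODE M21 transcripts, and promoter windows are the first listed for each symbol in RefSeq.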

Additional observations from a re-analysis of the deposited data

Results flagged for a closer look

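In 8 of the 35 tested members, 1 adenoma stood apart from the other 4 by Dixon's test on log2 CPM (gap over range above 0.71), and in all 8 it was adenoma 2, below the others. Chance alone gives about 1 such case in 20 groups. Over all 18345 tested genes an adenoma stood apart in 13.2%, and adenoma 2 stood apart below the others in 7.17%. Members are not independent of each other. The log2 CPM of adenoma 2 was 8.157 for H2-K1 (285 CPM, against 520.5 to 573 CPM in the other adenomas), 6.043 for H2-Ab1, 7.261 for Cd74, 5.247 for Psmb10 and 2.918 for H2-DMb1. It was 3.349 for H2-Q2, 1.012 for H2-Q1 and -0.3284 for H2-T3. The same library had the Hoxb13 and Gata4 levels that set it apart, the lowest sum of enterocyte genes and the highest sum of macrophage and monocyte genes. The part of these in the 8 values was not tested.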

How the results depend on the processing

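Over 621 alternative fits of single members, 503 kept direction and side of the threshold, 44 newly passed it, 63 no longer passed and 11 changed sign. The main fit had 23 members lower, beside 27.8% of all genes. With wild type 1 and adenoma 5 left out together 14 were lower, beside 20.4%. With the sex covariate, an alternative chosen after seeing the data, 8 were lower, beside 12.5%. When each library was left out in turn 16 to 25 were lower, beside 22.1% to 33.5%. Members higher numbered 1 with DESeq2, beside 29.8% of all genes, and 0 to 1 with a library left out, beside 24.3% to 34.0%. All genes called numbered 10657, but 5372 with the sex covariate and 6549 with the replicate block. Under the block 17 members were lower, beside 17.5% of all genes, with the calls of H2-Q1, H2-Q2, H2-T3, Psmb10, H2-DMb2, H2-Eb2 and H2-Ob lost and that of H2-Ab1 gained. With no filter and with limma-voom the calls of H2-Q2, H2-T3, H2-DMb2 and H2-Eb2 were lost, and with limma-voom that of H2-Ob too, while H2-M2 was gained. Deviations of same-numbered libraries from their group means had correlations of -0.02, 0.05 and 0.06, which cannot show whether these libraries share more than a number. The causes were not tested.

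Sign changes were all in members that did not pass the test, except H2-Eb2, which ran from -2.45 to 0.018 with a library left out, the latter without wild type 1, and was 0.013 without wild type 1 and adenoma 5. H2-Ke6 was -0.37 and H2-M9 -0.71 under pan-epithelial scaling, and H2-M9 ran from -0.10 (without adenoma 1) to 0.28 (without wild type 3) with a library left out and was 0.74 with the sex covariate. H2-M3 was 0.019 with no filter, 0.13 without wild type 1 and adenoma 5, 0.015 with the sex covariate and -0.16 to 0.17 with a library left out. H2-DMb1 was 0.091 with the sex covariate. Genes of under 10 CPM, among them H2-Oa, H2-M9 and H2-Ke6, are limited by depth, and overlapping or near-identical genes by the short unstranded reads.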
